A study of Mus musculus with 5 samples.

Results

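Semaphorins, plexins, Slits, Robos and netrins are the ligands and receptors that steer growing axons and migrating cells. They were examined in tissue holding the pharyngeal arches of mouse embryos at E10.5. Membership of a probe set was decided by gene name and not by its signal, although the families themselves were picked with earlier results of these data known. The members were every probe set of the array that was annotated to a single gene of the semaphorin, plexin, neuropilin, plexin domain, Slit, Robo, netrin, Unc5 or Dcc/neogenin families. This gave 70 probe sets of 43 genes, out of 20380 single-gene probe sets of 12393 genes. The gene table used for naming held 52 genes of these families, and the other 9 (Ntn5, Plxna4, Plxnb1, Robo2, Sema3d, Sema3g, Sema4c, Unc5a and Unc5d) were not analysed here.

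The study had 1 group of 5 samples, all wild-type, with no treatment and no other genotype. Each sample was a separate tissue isolate that, per the labels, contained the second heart field, from mice of a 129P2/OlaHsd background with 2 generations of backcrossing to C57BL/6. RNA from each isolate (10 ng) was amplified and hybridised to an Affymetrix array. Litters are not named in the labels, so the spread given below is that between isolates and may be partly technical.

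These families work by contact between a ligand and a receptor at the tip of an axon or the edge of a migrating cell. Class 3 semaphorins are secreted and bind neuropilins, which hand the signal to plexins, while most other semaphorins are bound to the membrane and bind plexins directly. Slits bind Robo receptors and mainly repel, and netrins attract through Dcc or neogenin and repel through Unc5 receptors. In the arches the same molecules are known to guide cranial nerve axons, neural crest streams and the endothelium of the arch arteries.

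Without a second group, the question the data can answer is which of these genes gave a signal above the background of the array, and how evenly over the samples. As background, each array's 95th percentile was taken over 213 probe sets of 177 genes that arch tissue is not known to use, among them odorant, taste and vomeronasal receptors, hair keratins, caseins, protamines and antigen receptor segments. It ran from 16.6 to 23.4 signal units over the 5 arrays. A stricter level, from a wider name pattern that also takes in casein kinases and interferon receptors, which many cells express, ran from 78.2 to 122. A gene counted as above background when limma's one-sided test passed, at an adjusted p below 0.05, for at least 1 of its probe sets. Signals are given per sample in the order of replicates 1 to 5, means are ± SD with n = 5, and the excess is the log2 signal minus the level, ± SE. Different probe sets bind with different efficiency, so the signals of single genes are compared between samples and are not ranked against each other.

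Of the 43 genes, 19 (44.2%) were above background, against 53.8% of all 12393 genes. Above the stricter level there were 6 (14.0%), namely Slit2, Robo1, Sema3a, Nrp1, Neo1 and Unc5c, against 28.5% of all genes. By probe set, 25 of 70 (35.7%) were above background, against 50.7% of all probe sets, and 7 (10.0%) were above the stricter level, against 24.9%. The median excess of a gene's brightest probe set was 0.14 for the 43 genes and 0.84 for all genes, which describes where these probe sets lay relative to the level and is no comparison of transcript amounts. With the 99th percentile of the same background genes as the level, 12 of the 43 genes passed, against 46.1% of all genes. Of the 19 genes, 7 then missed the threshold by limma, namely Sema5b (adjusted p = 0.118), Plxnb2 (0.132), Ntn1 (0.225), Sema5a (0.253), Plxnc1 (0.293), Sema4g (0.401) and Sema6b (1). At least 1 gene of each of the 10 families was above background, and in the brightest probe set of 18 of the 19 genes all 5 arrays lay above their level. Neither count was made for other families or for all genes, and a called gene has by definition a mean above the level. The counts per family given below were not tested against the shares of all genes. The other 24 of the 43 genes had mean signals from 0.853 to 27.2. A probe set without signal may also bind poorly, so no absence of a transcript follows.

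**Figure D1:**
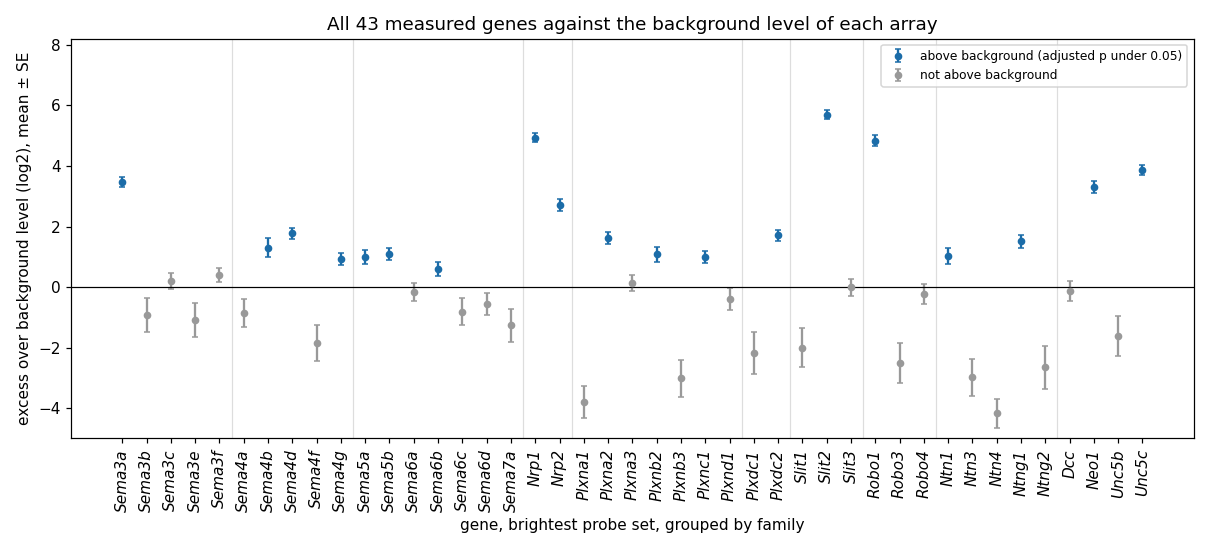
Excess of each gene's brightest probe set over the background level (log2, mean ± SE over 5 samples), for the 43 genes grouped by family. The 19 genes above background are blue, and the 24 others are grey, with SEs that reach or cross the zero line for several of them such as Slit3 and Dcc.

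Among the Slits and their receptors, 1 ligand and 1 receptor were above background. Slit2, a large secreted ligand with leucine-rich repeats, had signals of 979, 1273, 1019.7, 879 and 982. It was high in every sample and varied little, and its mean of 1026 ± 147 exceeded background by 5.69 ± 0.15 (adjusted p = 3e-20, limma). Robo1, an immunoglobulin-type receptor of Slits, had signals of 691, 614, 709, 469.9 and 388. Replicates 4 and 5 were lower than the other 3, yet both stayed far above background (mean 574 ± 141, excess 4.83 ± 0.18, adjusted p = 1.63e-17, limma).

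The other Slit and Robo genes did not pass the test. Slit3 lay close to the level, with a mean signal of 20.3 ± 6.67, an excess of -0.01 ± 0.28 and 2 of 5 arrays above the level. Slit1, known mainly from the nervous system, had a mean of 6.49 ± 4.58 and no array above the level. Robo3, which is known for its role in axons that cross the midline, averaged 5.30 ± 6.03, also with no array above the level. Robo4, a receptor of endothelial cells, averaged 17.9 ± 6.82, with 2 arrays above.

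Of 5 class 3 semaphorins, only Sema3a was above background at either level. Sema3a, a repellent of sensory and motor axons that also acts on crest cells, had signals of 180.5, 206, 268, 217 and 234. All 5 values lay within a narrow band (mean 221 ± 32.5), with an excess of 3.48 ± 0.16 (adjusted p = 8.46e-16, limma). Sema3f, which repels through Nrp2, averaged 27.2 ± 8.86 and lay above the level in 4 of 5 arrays, but its excess of 0.40 ± 0.24 missed the threshold (adjusted p = 0.101, limma). Sema3c is known from mouse mutants as a ligand needed for septation of the outflow tract. It gave 27.7, 24.3, 27.3 and 31.3 in replicates 1, 3, 4 and 5, and in replicate 2 it lay under the level (excess 0.19 ± 0.27, adjusted p = 0.437, limma). Sema3b (15.0 ± 8.37) and Sema3e (13.4 ± 8.47), a ligand of Plxnd1, were above the level in 1 array each.

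Both neuropilins, the coreceptors of class 3 semaphorins, were above background. Nrp1, which also binds vascular endothelial growth factor, had signals of 579, 564, 621, 533 and 725 on its brightest probe set. These values were even over the samples (mean 604 ± 74.4, excess 4.93 ± 0.15, adjusted p = 2.18e-19, limma). Nrp2 had signals of 149, 168, 116, 124 and 98.3, with a mean of 131 ± 27.3 and an excess of 2.71 ± 0.19 (adjusted p = 2.61e-12, limma). At the stricter level Nrp2 missed the threshold, with an excess of 0.35 and an adjusted p of 0.117.

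**Figure D2:**
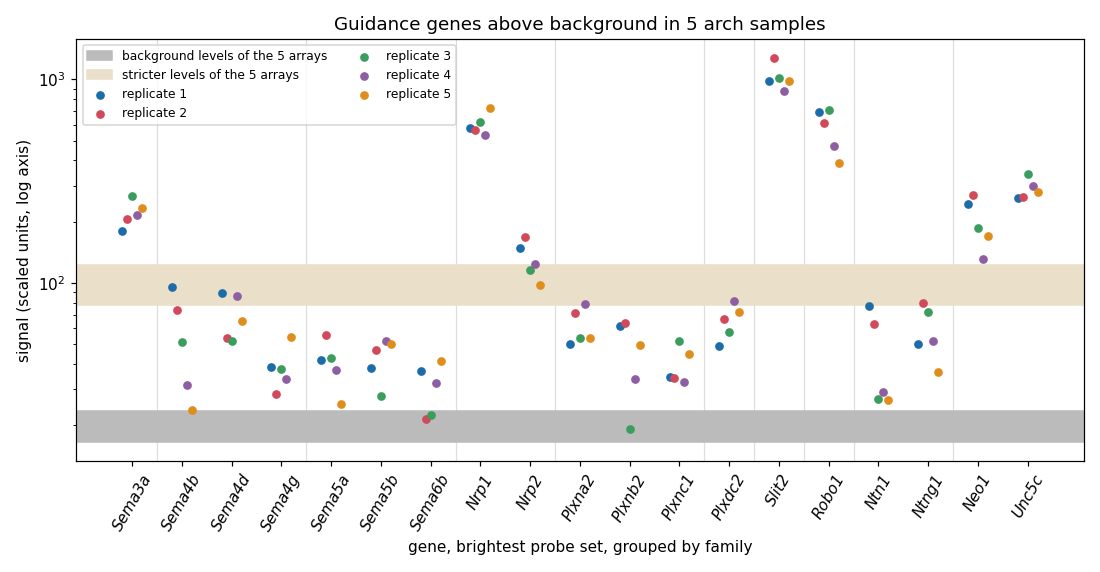
Signal of the brightest probe set of the 19 genes above background in each of the 5 samples, on a log axis in scaled units, grouped by family. The grey band spans the background levels of the arrays (16.6 to 23.4) and the tan band the stricter levels (78.2 to 122). All 5 points lie above the tan band for Slit2, Robo1, Sema3a, Nrp1, Neo1 and Unc5c.

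The membrane-bound semaphorins gave 6 of 12 genes above background, none of them at the stricter level, against 53.8% and 28.5% of all genes. In class 4, Sema4d, a ligand of B-type plexins, had signals of 89.4, 53.6, 52.0, 86.7 and 65.3 (excess 1.78 ± 0.19, adjusted p = 5.73e-09, limma). Sema4g, a less studied member of the class, had 38.8, 28.5, 37.7, 33.7 and 54.5 (excess 0.94 ± 0.20, adjusted p = 0.000155). Both were above the level in every sample without a sample that stood apart. On the brightest probe sets, Sema4b was the most uneven of the 19 genes by the ratio of its highest to its lowest sample. Its signals were 96.1, 73.4, 51.3, 31.5 and 23.8, a 4.05-fold range (excess 1.30 ± 0.30, adjusted p = 0.000719, limma), and in replicate 5 it lay almost at the level of 23.4. Sema4a (12.7 ± 6.59) and Sema4f (6.17 ± 3.29) did not pass the test.

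In classes 5 to 7, Sema5a and Sema5b, transmembrane semaphorins with thrombospondin repeats, were both above background. Sema5a had signals of 41.8, 55.8, 42.9, 37.5 and 25.6 (excess 1.004 ± 0.227, adjusted p = 0.000244, limma), lowest in replicate 5. Sema5b had 38.3, 46.9, 28.0, 51.7 and 50.2 (excess 1.09 ± 0.20, adjusted p = 2.44e-05), lowest in replicate 3. The transmembrane ligand Sema6b had 36.8, 21.4, 22.4, 32.2 and 41.5, with replicates 2 and 3 only slightly above their levels. Its excess of 0.60 ± 0.22 passed with an adjusted p of 0.0142 (limma), but without replicate 1 the excess was 0.48 and the adjusted p 0.0822. Sema6a (17.7 ± 2.63), Sema6c (13.2 ± 9.23), Sema6d (14.6 ± 6.96) and the membrane-anchored Sema7a (9.33 ± 4.32) did not pass.

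Plexins, the signalling receptors of the semaphorins, gave 3 of 7 genes above background, and none at the stricter level. Of all genes, 53.8% were above background and 28.5% above the stricter level. Plxna2, an A-type plexin that can pair with neuropilins, had signals of 50.3, 71.1, 53.6, 79.2 and 53.5 (mean 61.6 ± 12.8, excess 1.62 ± 0.19, adjusted p = 2.68e-08, limma). Plxnc1, the receptor of Sema7a, had 34.4, 34.2, 52.0, 32.6 and 45.05 (excess 0.98 ± 0.20, adjusted p = 9.6e-05). Plxnb2, a receptor of class 4 semaphorins, had 61.5, 63.7, 19.2, 33.6 and 49.4. Replicate 3 lay just under its level of 19.4, and the gene still passed (excess 1.08 ± 0.25, adjusted p = 0.000301, limma). The other A-type plexins differed in how far they fell short: Plxna3 averaged 22.8 ± 8.11 with 3 arrays above the level (adjusted p = 0.544, limma), and Plxna1 averaged 1.55 ± 0.891 with none. Plxnb3 averaged 3.37 ± 3.27.

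Plxnd1, the endothelial plexin whose loss in mice disturbs the arch arteries and the outflow tract, had signals of 13.7, 25.5, 25.7, 11.8 and 6.99. Only replicates 2 and 3 lay above the level, and the excess was -0.40 ± 0.37. Among the 10 measured endothelial markers, 6 were above background, namely Tek (excess 4.10), Cd34 (2.75), Flt1 (2.72), Emcn (2.57), Kdr (2.15) and Esam (0.57), and Tek also passed at the stricter level. Pecam1, Cdh5, Tie1 and Eng did not pass, and of all genes 53.8% were above background. The summed signal of the 10 markers was 811 to 1034 over the samples. In whole tissue, fewer cells of a type and less RNA per cell cannot be told apart, and the part of endothelial content in the signals of Plxnd1 and Robo4 was not tested.

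The plexin domain proteins share a plexin-like repeat but are not semaphorin receptors of the plexin family. Plxdc2 was above background with 49.2, 66.9, 57.6, 81.3 and 71.7 (excess 1.71 ± 0.18, adjusted p = 4.74e-09, limma). Its second probe set gave 39.9, 56.3, 62.6, 72.9 and 47.7, lowest in replicate 1 and highest in replicate 4 like the first. Plxdc1, first described in tumour endothelium, averaged 7.48 ± 8.04 and did not pass.

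Netrins gave 2 of 5 genes above background, and none at the stricter level, against 53.8% and 28.5% of all genes. Ntn1, the secreted cue of the floor plate, had signals of 77.0, 63.0, 27.0, 29.2 and 26.5 (excess 1.02 ± 0.27, adjusted p = 0.00137, limma). Replicates 1 and 2 were clearly higher than the other 3, which lay only slightly above their levels. Ntng1, a netrin-G protein anchored in the membrane that does not bind the netrin receptors, had 50.3, 80.1, 71.8, 52.1 and 36.7 (excess 1.51 ± 0.22, adjusted p = 6.86e-07). Ntn3 (2.87 ± 1.98), the basement membrane netrin Ntn4 (0.853 ± 0.414) and Ntng2 (6.80 ± 8.26) had no array above the level.

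Of 4 netrin receptors, Neo1 and Unc5c were above background at both levels, while Dcc and Unc5b were not. The shares of all genes were 53.8% at the main level and 28.5% at the stricter one. Unc5c, a receptor that turns the response to netrin into repulsion, had 262, 264, 344, 299.8 and 280.04. On the brightest probe sets it was the most even of the 19 genes, with a 1.31-fold range (mean 290.1 ± 33.9, excess 3.87 ± 0.16, adjusted p = 7.06e-17, limma). Its second probe set had a 2.31-fold range. Neo1, neogenin, a receptor for netrins and for repulsive guidance molecules, had 244, 271, 186, 132 and 169.8 (excess 3.30 ± 0.20, adjusted p = 1.39e-13), lowest in replicate 4. Dcc, the attractive receptor of commissural axons, had 21.5, 12.3, 29.1, 30.6 and 7.85, with 3 arrays above the level and an excess of -0.13 ± 0.33. Unc5b, a receptor known from blood vessels, averaged 9.98 ± 8.06.

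Signals of neurons were present in the same tissue. All 14 measured neuronal markers were above background and 13 were above the stricter level, with a summed signal of 5409 to 9612 over the samples. Of 12 crest and mesenchyme markers, 8 were above background and 4 (Prrx1, Twist1, Dlx2 and Sox9) above the stricter level, with a summed signal of 2125 to 3372. Dlx5, Alx4, Snai1 and Foxd3 of this list did not pass. For comparison, 53.8% of all genes were above background and 28.5% above the stricter level. Isl1, a factor of second heart field progenitors that also marks motor and sensory neurons, averaged 1387 ± 223. The cells that carried the guidance transcripts cannot be told from whole tissue.

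A gene with several probe sets allowed a check of the call. Of the 19 genes above background, 11 had 2 or more probe sets. In 4 of them (Nrp1, Plxdc2, Sema3a and Unc5c) every probe set passed, and in the other 7 the calls differed. In each of these 4 genes the probe sets came from 1 source sequence, so their agreement is no independent check. Ntn1, Ntng1, Sema4b, Sema4d and Sema5a had probe sets from 2 sources. How often calls differ within a gene was not counted for all genes. The second Slit2 probe set, derived from the same source sequence as the first, gave 4.06, 18.1, 9.75, 22.7 and 23.7 and did not pass (excess -0.59 ± 0.40). The dimmer probe sets of Ntn1 (1.33 to 10.46), Ntng1 (0.512 to 16.1), Sema4b (0.737 to 13.7), Sema4d (1.08 to 18.7 over 2 probe sets), Sema5a (0.76 to 17.4) and Plxnc1 (0.947 to 24.5 over 3 probe sets) did not pass either.

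The 3 probe sets of Nrp1 came from 1 source sequence and ordered the samples differently. The second one, 1448943_at, gave 496, 599, 497, 288 and 332, lowest in replicates 4 and 5. The third, 1418084_at, gave 63.3, 54.1, 57.3, 70.7 and 103.9, highest in replicates 4 and 5. The brightest one, 1448944_at, was highest in replicate 5 like the third, and lowest in replicate 4 like the second. A direction for Nrp1 between samples therefore depends on the probe set. For Sema3a, 1420417_at gave 23.9, 24.02, 42.2, 50.6 and 62.3, while 1449865_at gave 34.1, 54.0, 42.0, 53.9 and 19.5, so replicate 5 was the highest sample on one and the lowest on the other. The second Unc5c probe set gave 53.3, 51.0, 47.7, 33.1 and 76.6, lowest in replicate 4, where the brighter one was not low.

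**Figure D3:**
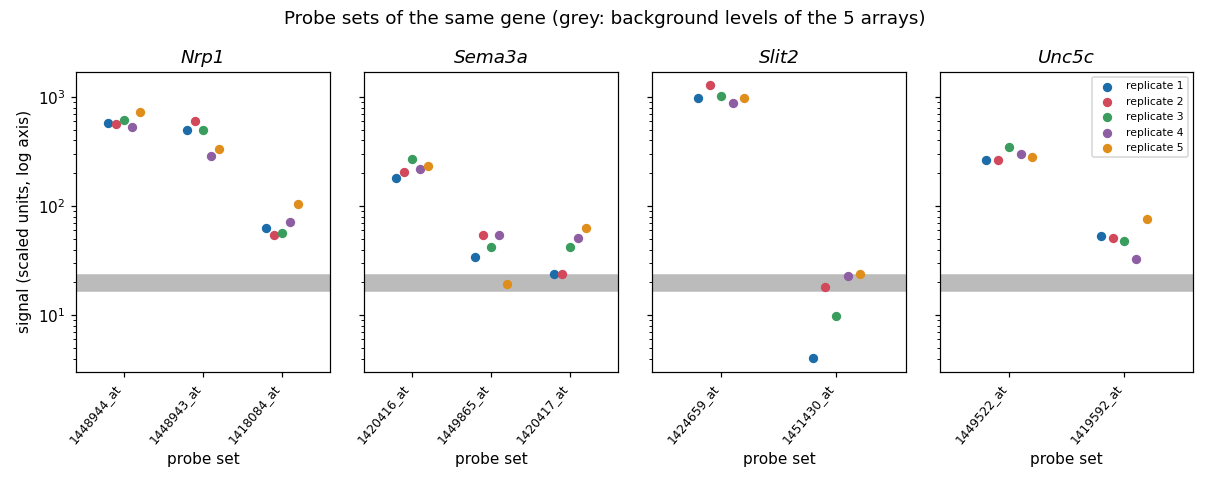
Signal of every probe set of Nrp1, Sema3a, Slit2 and Unc5c in each of the 5 samples (points, log axis, scaled units), with the background levels of the arrays in grey. The second Slit2 probe set reaches 23.7 at most, and on the second Nrp1 probe set replicates 4 and 5 are the 2 lowest points.

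Differences between the samples were tested by setting the variance of each probe set against that of all probe sets of like signal. Of 28 member probe sets with a mean above the level, 0 varied by more than the trend at an adjusted p below 0.05 (F test against limma's variance trend), against 13 of 11641 probe sets in the whole table (0.112%). At an unadjusted p below 0.05 there was 1 (3.57%), against 5.25% of all probe sets. It was Sema4b, whose variance was 4.61 times that of the trend (adjusted p = 0.816, F test on limma's trend). With 5 samples, moderate differences can go unseen. In none of the 25 member probe sets above background did 1 sample stand far from the other 4 by Dixon's criterion. The criterion flags about 1 probe set in 20 by chance, and it was not applied to other probe sets. The count of 0 therefore says little about evenness.

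The median SD between samples was 0.37 log2 units for the 19 genes, and 0.30 for all genes above background. Unlike the variance test, these medians were not matched for signal. The highest sample exceeded the lowest by more than 2-fold in 6 of the 19 genes, a count that was not made for other genes. As a group the 19 genes deviated from their own means by 0.13, 0.15, -0.09, -0.09 and -0.11 log2 units in replicates 1 to 5, and all genes above background by 0.03, 0.02, -0.04, -0.03 and 0.03. In this mean replicates 1 and 2 were thus the higher samples, by a small amount that moved with the scaling of the arrays. Median centring gave 0.15, 0.21, -0.02, -0.12 and -0.23. Gene by gene, replicate 1 was the highest sample in 3 of the 19 genes and the lowest in 4. Replicate 2 was the highest in 6 and the lowest in 2. Of all genes above background, replicate 1 was the highest sample in 21.6% and the lowest in 21.4%. Replicate 2 was the highest in 16.2% of them and the lowest in 14.5%. Ntn1 (0.95 and 0.66), Sema4b (0.98 and 0.60) and Plxnb2 (0.56 and 0.61) had the largest deviations of the 19 genes in these 2 samples. In replicate 1 they made up nearly all of the shift. Plxna2, Plxdc2, Sema3a and Unc5c had replicate 1 as their lowest. Neuronal markers deviated by 0.17, -0.06, 0.27, -0.45 and 0.07, and crest and mesenchyme markers by 0.52, -0.04, -0.20, -0.18 and -0.11, in the same samples. The cytoplasmic effectors of the pathway also had replicates 1 and 2 on top, with 0.27, 0.16, -0.29, -0.09 and -0.05. Erythroid markers moved most, with -0.08, -0.001, 0.29, -0.79 and 0.58, and cardiac muscle markers gave -0.16, 0.26, -0.45, -0.05 and 0.41. These 2 means rest on only 3 and 5 genes above background, and means of few genes swing more easily. The shift of the guidance genes was no larger than that of several other lists, among them the 22 effectors and 14 neuronal markers above background. The part of these cell types in the deviations of the guidance genes was not tested.

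**Figure D4:**
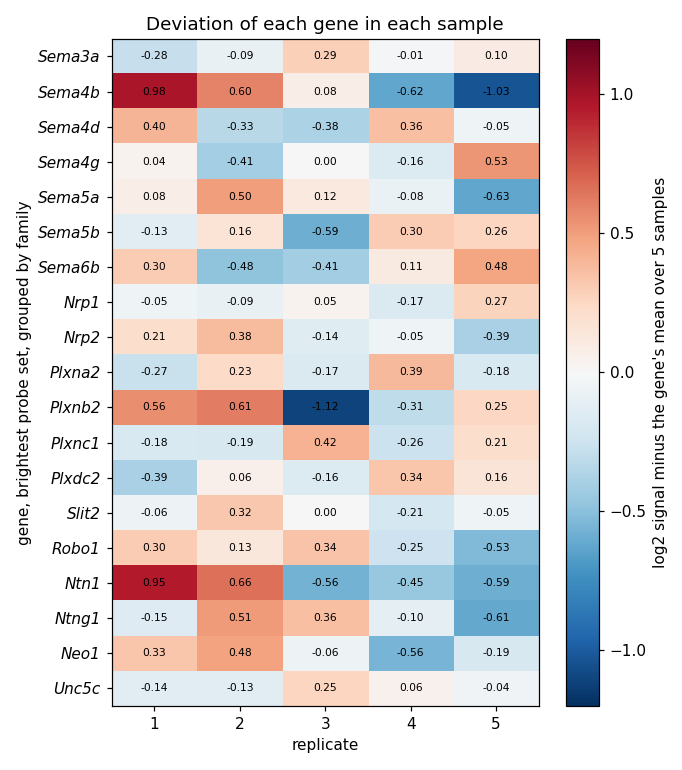
Deviation of the 19 genes above background in each sample, as log2 signal minus the gene's mean over the 5 samples, grouped by family. Sema4b runs from 0.98 in replicate 1 to -1.03 in replicate 5, and Plxnb2 is low in replicate 3 (-1.12). Slit2 (-0.21 to 0.32) and Unc5c (-0.14 to 0.25) deviate less.

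Other genes of the pathway were taken from 2 lists, and the 3 with the largest excess are given with their values, a choice of examples and no ranking of amounts. Of all 12393 genes, 53.8% were above background and 28.5% at the stricter level. Of 27 measured cytoplasmic effectors, which carry the signal from the receptors to the cytoskeleton, 22 were above background and 11 at the stricter level. Dpysl3, a collapsin response mediator protein that acts on microtubules and actin, had signals of 2349.7, 1811, 1961, 1294 and 1649, and Cdc42, a small GTPase of the actin cytoskeleton, had 1827, 1664, 1867, 1534 and 1643. Their excess was 6.50 ± 0.16 and 6.43 ± 0.14. The 5 effectors that did not pass were Dpysl2, Fes, Mical2 and the Slit-Robo GTPase-activating proteins Srgap1 and Srgap2, whereas the related Srgap3 passed (70.8 ± 18.6). Of 12 measured receptor partners and coreceptors, 6 were above background (L1cam, Nrcam, Kdr, Itgb1, Gpc1 and Sdc1) and 3 at the stricter level. Sdc1, a cell surface heparan sulfate proteoglycan, had signals of 1403, 1425, 1174, 1141 and 1343 (excess 6.04 ± 0.14). Chl1, Cntn2, Met, Erbb2, Dscam and Sdc3 did not pass. The shares of the 2 lists were not tested against those of all genes.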

How the data were processed

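Total RNA of 5 tissue isolates was measured on Affymetrix arrays. The deposited values are intensity values on a linear scale, 1 per probe set and array. Per the submitters' processing notes the authors used GCOS, but its version and algorithm are not given in the sources used here. Scaling left a trace, as the mean signal between the 2nd and 98th percentile was 150.0 on every array. Depth has no counterpart on arrays, and the number of samples limits the precision. Of 22690 probe sets, 64 were controls, 691 had several genes and 1555 no gene annotated, and these were left out. Symbols were updated by Entrez identifier through RefSeq's gene list (20351 probe sets matched), which changed 0 member symbols. Signals were floored at 1 and put on the log2 scale. Detection used limma 3.58.1 in R 4.3.3 (lmFit, then eBayes with a trend and robust fitting) on the difference between log2 signal and the array's level, one-sided, with Benjamini-Hochberg adjustment over all 20380 probe sets. Variability used an F test against the robust variance trend. Both steps were tested on simulated data. Detection called 66% of probe sets given an excess of 0.5 and 100% of those given an excess of 1. The variability test called 55% of probe sets given 3 times the usual SD and 94% of those given 6 times. The simulation took the level as given, so it does not bear on the choice of level. Every member gene above background is named with its brightest probe set. Of the pathway lists, the 3 genes with the largest excess are given in full, and others by call. The level of an earlier analysis took in casein kinases and interferon receptors and is used here as the stricter alternative. The families and lists were chosen with earlier results of these data known, and the probe sets within them by name.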

Additional observations from a re-analysis of the deposited data

How the results depend on the processing

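The count of 19 genes above background rested mostly on the level. It was 6 at the stricter level and 12 with the 99th percentile of the same families (without Ntn1, Plxnb2, Plxnc1, Sema4g, Sema5a, Sema5b and Sema6b), and 18 to 20 when each sample was left out in turn. Of all genes, 28.5% were called at the stricter level, 46.1% with the 99th percentile and 52.5% to 54.1% without single samples. The count of guidance genes was 19 or 20 under the other 8 alternatives (quantile normalisation, median centring, a floor of 16, limma without trend and robust options, the brightest probe set alone, plain probe sets, a filter on low signals and the 90th percentile). Of all genes tested, 73.6% were called with the filter on low signals, and 51.4% to 57% under the rest of these alternatives. Sema3f joined with the 90th percentile, with plain probe sets and without replicate 3. Slit2, Robo1, Sema3a, Nrp1, Neo1 and Unc5c were called under all 15 alternatives. At the stricter level the excess was negative for Ntn1 (-1.33), Ntng1 (-0.84), Plxdc2 (-0.65), Plxna2 (-0.73), Plxnb2 (-1.27), Plxnc1 (-1.37), Sema4b (-1.05), Sema4d (-0.57), Sema4g (-1.42), Sema5a (-1.35), Sema5b (-1.26) and Sema6b (-1.75), and Sema6b was also negative with the 99th percentile (-0.13). The stricter level is higher by construction. The count of variable member probe sets was 0 under every alternative run. The gap between the highest and lowest sample in the mean deviation of the genes was 0.262 log2 units, 0.439 with median centring, which shifts replicate 5 by 0.118, and 0.211 to 0.33 without single samples. No paired analysis was possible because there was only 1 group. Weak signals near the level limit these calls.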
